A study of Equus caballus with 12 samples.

Results

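A group of 53 of the 31217 genes counted in 3 equine tissues was read almost only in the lung. The genes were chosen from the deposited counts after scaling each library by its size factor, which divides out sequencing depth so that a value can be read as a normalized count. A gene belonged to the group when its median over the 4 lung libraries was at least 200 normalized counts and at least 100 times the heart median plus 1 and the liver median plus 1. The differences between lung and heart and between lung and liver were therefore used to choose the genes. Their sizes and calls are given below as a description, and no test of them is independent of the choice.

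Heart muscle was left ventricle, liver came from the right lobe and lung from the caudal part of the right side. The donors were 4 young stallions, cold-blooded and healthy, 1 to 2 years of age. Each horse gave 1 library of each tissue, the replicate number being taken as that of the horse, and polyadenylated RNA was read. Gene counts ranged from 4345694 to 23474239 per library, with liver replicate 4 and heart replicate 3 the shallowest of their tissues. Each library was 1 piece of a mixed organ, and in such bulk samples fewer cells of a type and less RNA per cell cannot be told apart. One library stood apart, since the 259 genes restricted to the liver by the same rule took 1.21% of gene counts in heart replicate 2, compared with 0.0238% to 0.1000% in the other heart libraries. The share of the 53 lung-restricted genes was 0.00243% in heart replicate 2, second highest of the 4 hearts, which had 0.00142%, 0.00374% and 0.00213% in replicates 1, 3 and 4.

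The lung exchanges gases across a thin alveolar epithelium, which is kept open by surfactant, a film of lipid and protein made by specialised epithelial cells. Its airways are lined by ciliated and secretory cells, and it holds a dense bed of capillaries and resident macrophages. Surfactant proteins and the markers of airway cells are textbook examples of transcripts that muscle and liver lack. Genes are listed under Ensembl identifiers, of which 0 could be paired with a symbol through the reference table, so the 53 genes are given by identifier, their functions are not stated, and the tissue labels were not checked against named marker genes. Symbols that a supplementary table of the study pairs with identifiers were not used here. Read counts are also not corrected for gene length, so that values are compared between libraries for 1 gene and not between genes.

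The 53 genes took 4.27% ± 1.07 of all gene counts in the lung (SD, n = 4). The share was 3.38%, 5.78%, 3.66% and 4.26% in lung replicates 1 to 4, which places the library of horse 2 above the other 3. The same genes took 0.00243% ± 0.00097 of gene counts in heart libraries and 0.00209% ± 0.00071 in liver libraries (mean ± SD, n = 4 each). No lung library approached a heart or liver library in this share.

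The reads were unevenly spread over the 53 genes. The 7 genes with a lung median of at least 10000 normalized counts held 83.0% of the lung reads of the group, and the gene with the most reads alone held 24.7%. A total of 12 genes had a lung median below 300, 10 lay between 300 and 500, 10 between 500 and 1000, 11 between 1000 and 3000 and 3 between 3000 and 10000.

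**Figure D1:**
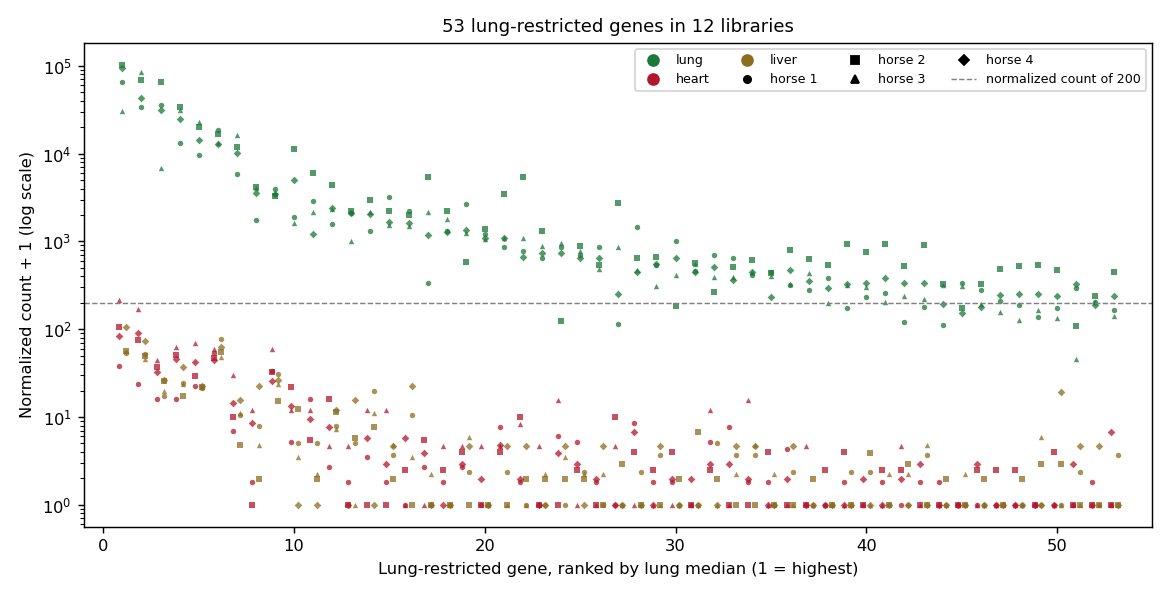
Normalized counts plus 1 of the 53 lung-restricted genes, on a log scale, in each of the 12 libraries. Genes are ranked by lung median on the horizontal axis, with a colour for each tissue and a symbol for each horse. All lung points of a gene lie above all of its heart and liver points, and the lowest lung point of 17 genes falls under the line at 200.

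ENSECAG00000010662 had the most reads of the group. Its normalized counts were 65073, 103151, 30805 and 93360 in lung replicates 1 to 4. In the heart they were 36.8, 106.0, 212.3 and 82.2, and in the liver 53.0, 55.3, 55.0 and 105.4. The lowest lung library, that of horse 3, was still 145 times the highest of the 8 other libraries.

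ENSECAG00000018767 had normalized counts of 34259, 69566, 84969 and 43564 in lung replicates 1 to 4, and the library of horse 3, lowest for the gene before, was here the highest. Heart values were 22.6, 74.7, 168.4 and 89.9 and liver values 51.6, 48.6, 45.0 and 72.7. The order of the lung libraries thus differed between the pair of genes with the most reads.

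ENSECAG00000039036 varied more between horses than the other 6 genes with a lung median of at least 10000. It reached 35379, 66242, 6844 and 31691 normalized counts in lung replicates 1 to 4, a 9.68-fold range. Heart libraries lay between 15.1 and 43.9 and liver libraries between 16.3 and 25.4. Even in the lung of horse 3 the value was 156 times that of the highest heart or liver library.

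ENSECAG00000021053, ENSECAG00000019375 and ENSECAG00000013315 shared a low value in lung replicate 1. The first had 13378, 33619, 31225 and 25115 normalized counts in lung replicates 1 to 4. The second had 9698, 19962, 23177 and 14437. The third had 5823, 11926, 16132 and 10243. In each of these genes, as in ENSECAG00000018767 above, horse 1 was lowest, horse 4 next and horses 2 and 3 highest. Among the genes of this paragraph so far, the highest library was 2.39 to 2.77 times the lowest. ENSECAG00000006706 followed with 1767, 4135, 4110 and 3579, again lowest in horse 1. Its heart libraries held 1, 0, 3 and 8 reads and its liver libraries 5, 1, 3 and 6.

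ENSECAG00000020819 and ENSECAG00000029287 were steady between horses. ENSECAG00000020819 had 18405, 16681, 13297 and 12764 normalized counts in lung replicates 1 to 4, a range of 1.44-fold. ENSECAG00000029287 had 3980, 3332, 3518 and 3491, a coefficient of variation (CV, the SD as a percent of the mean) of 7.79%, the smallest of the 53. Both also stood out by their level outside the lung. Heart libraries of ENSECAG00000029287 lay between 24.9 and 58.6 normalized counts and its liver libraries between 14.3 and 29.9, which put the gene close to the limit of the rule.

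The groups of libraries did not overlap for any member. In all 53 genes every lung library lay above every heart and liver library, a pattern found, with TMM-scaled counts (scaled by trimmed means of log ratios), in 18% of the 15436 genes tested across the series. As the rule chose genes on these values, nothing is read from this count. The lowest lung library was at least 10 times the highest heart or liver library in 51 genes and at least 100 times in 21. The 2 exceptions to the first were ENSECAG00000011573, at 7.37 times, and ENSECAG00000034028, at 8.51 times. In ENSECAG00000011573 the gap was narrowed by 5 reads in liver replicate 4, worth 18.2 normalized counts in that shallow library. In ENSECAG00000034028 the lung of horse 2 was low, at 124.5 normalized counts compared with 858.6, 947.5 and 744.3 in horses 1, 3 and 4.

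In the model of all 12 libraries, all 53 genes were differentially expressed genes (DEGs, at least 2-fold different with a Benjamini-Hochberg adjusted p under 0.05 by the quasi-likelihood test of edgeR) with higher expression in the lung in both LvsH, lung over heart, and LvsLR, lung over liver. Among all 15436 tested genes, LvsH gave 24.5% with the lung higher and 20.7% with the heart higher. LvsLR gave 31.1% with the lung higher and 19.4% with the liver higher. All members passed the filter on low counts through their lung libraries, so these calls follow from the choice. Fitted log2 fold changes ran from 6.51 to 11.41 in LvsH, with a median of 9.02, and from 6.40 to 14.02 in LvsLR, with a median of 9.22.

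To see how far membership rested on a single animal, the rule was applied to each horse alone. It was met by 40, 48, 37 and 42 of the 53 genes in horses 1 to 4. A total of 24 genes met it in all 4 horses, 16 in 3 horses, 10 in 2 horses and 3 in 1 horse. The lung value of the horse was below 200 for 9, 4, 8 and 4 genes, the heart ratio below 100 for 5, 1, 7 and 3 and the liver ratio below 100 for 5, 3, 5 and 6, and a gene could miss on several.

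The genes were then chosen anew from 3 horses and read in the horse left out, whose values had no part in that choice. Without horse 1 the rule gave 57 genes, of which 36 met it in horse 1. Without horse 2 it gave 44 genes, of which 37 met it in horse 2, and without horse 3 it gave 56, of which 34 met it in horse 3. Without horse 4 it gave 50 genes, of which 37 met it in horse 4. Every one of these genes was higher in the lung than in the heart and the liver of the horse left out. The share of all genes with this order in a single horse was not computed, so nothing is read from it. ENSECAG00000033059, which is not among the 53, was barely higher. It had 1.57 normalized counts in the lung and 0.837 in the heart of horse 1, and 8.76 and 3.66 in horse 3. ENSECAG00000036703, also not among the 53, had 9.87 in the lung and 0 in the heart and liver of horse 4. The 4 choices shared 47, 42, 49 and 45 genes with the 53, in the same order.

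At the edges of the rule, genes inside and outside differed little. ENSECAG00000010714 and ENSECAG00000005150 were just inside the lung minimum, at medians of 201.7 and 202.5, and ENSECAG00000012552 and ENSECAG00000017085 were just outside, at 195.2 and 185.3. ENSECAG00000012552 had no read in any of the 8 heart and liver libraries. For the heart ratio, ENSECAG00000035101 and ENSECAG00000029287 were just inside, at 103 and 106, and ENSECAG00000020202 and ENSECAG00000023854 just outside, at 99.9 and 95.2. ENSECAG00000020202 reached a lung median of 8882 normalized counts. For the liver ratio, ENSECAG00000011573 and ENSECAG00000019457 were just inside, at 104 and 106, and ENSECAG00000023874 and ENSECAG00000010535 just outside, at 94.4 and 74.4.

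Reads of the 53 genes were few but present in every heart and liver library. Heart replicates 1 to 4 held 334, 322, 230 and 482 such reads and liver replicates 1 to 4 held 269, 315, 243 and 136, compared with 283723 to 823498 in the lung libraries. Between 17 and 26 of the 53 genes had no read in a given heart library, and between 22 and 28 had none in a given liver library. No gene was without a read in all 8 libraries.

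A few genes came near to absence. ENSECAG00000037915 and ENSECAG00000019457 had no read in any heart library, which, with 3 counts over the 4 libraries as the limit of a count of 0, left them at least 251-fold and at least 283-fold higher in the lung. ENSECAG00000032995, ENSECAG00000032026, ENSECAG00000023472 and ENSECAG00000024156 had none in any liver library. By the same limit they were at least 1595-fold, 1106-fold, 313-fold and 250-fold higher in the lung. These genes were singled out after their values had been seen. ENSECAG00000032026 was also among the steadiest of the group in the lung, with 1229, 1402, 1051 and 1079 normalized counts in replicates 1 to 4, against 0, 0, 1 and 1 reads in the heart.

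The summed level of the 53 genes outside the lung was a small percent of that in the lung of the same horse. It was 0.125%, 0.121%, 0.342% and 0.169% in the hearts of horses 1 to 4. In the livers it was 0.164%, 0.0755%, 0.123% and 0.181%. Hearts averaged 0.189% ± 0.104 and livers 0.136% ± 0.047 (SD over 4 libraries), and the ranges of the tissues overlapped. These percents depend on the scaling, and with library totals alone the means were 0.0591% and 0.0508%. The highest values belonged to heart replicate 3 and liver replicate 4, which are the shallowest libraries of their tissues. The part of depth in this order was not tested, and without horse 3 the heart mean was 0.138%.

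**Figure D2:**
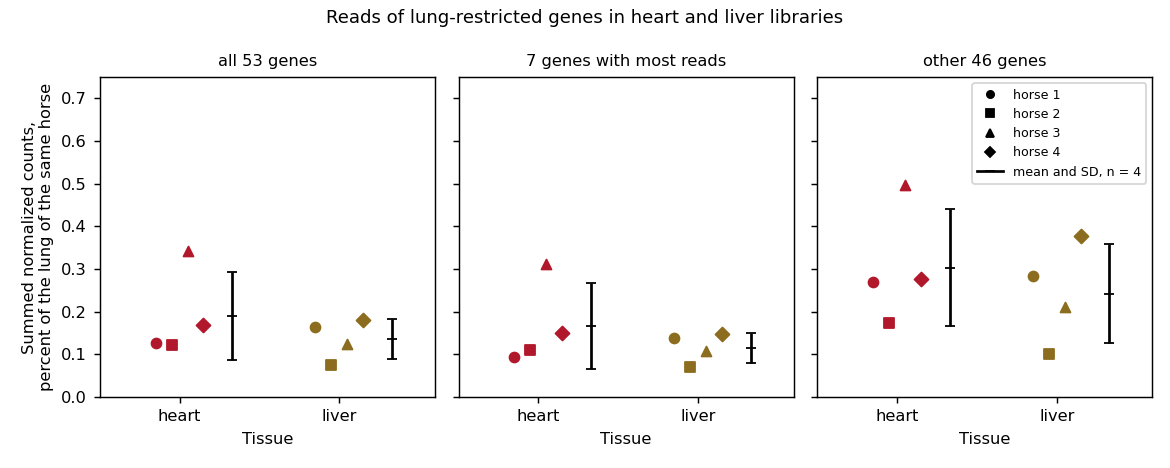
Summed normalized counts of the lung-restricted genes in heart and liver libraries, as a percent of the sum in the lung of the same horse, for all 53 genes, the 7 with the most reads and the other 46. Each symbol stands for a horse, and the black bar shows mean and SD over the 4 libraries. Heart replicate 3 lies above the other heart libraries in each panel, at 0.342% for all genes.

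The percent was similar for most of the 7 genes with the most reads. Pooled over the 4 libraries of a tissue, ENSECAG00000010662, ENSECAG00000018767, ENSECAG00000039036, ENSECAG00000021053 and ENSECAG00000013315 stood in the heart at 0.116%, 0.110%, 0.0879%, 0.131% and 0.0912% of their lung level. In the liver they stood at 0.0847%, 0.0814%, 0.0675%, 0.0788% and 0.0667%. ENSECAG00000019375 stood at 0.187% and 0.116%. ENSECAG00000020819 lay apart, at 0.335% in the heart and 0.404% in the liver. The first 5 were grouped after their percents had been seen. They ran from 0.0879% to 0.131% in the heart and from 0.0667% to 0.0847% in the liver, and their lung medians from 11085 to 79217 normalized counts. Across the 53 genes, lung reads and reads outside the lung rose together (Spearman's rho = 0.80 over genes that share the 12 libraries and that the rule had capped at about 1%). The rule tied the values to each other and reads are not corrected for gene length, so nothing is read from this coefficient.

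The other 46 genes spread more widely, from 0 to 0.907% of the lung level in the heart, with a median of 0.169%, and from 0 to 1.01% in the liver, with a median of 0.146%. The highest heart percent was that of ENSECAG00000029287 and the highest liver percent that of ENSECAG00000011573. A single read was worth between 0.837 and 3.66 normalized counts in the heart and between 0.953 and 3.63 in the liver, so that for most of these genes the percent rests on a handful of reads. A total of 28 genes had at most 10 reads over the 8 libraries together. Limits drawn from counts cover counting error only.

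The rule capped heart and liver alike and did not set them against each other (HvsLR, heart over liver), but it kept both levels low. In the model of all 12 libraries, edgeR called 2 of the 53 genes, 3.77%, both with the heart higher, whereas among all 15436 tested genes 26.4% were higher in the heart and 22% in the liver. The members entered this model through their lung reads. With heart and liver libraries alone 7 of the 53 genes passed the filter on low counts, and edgeR called 0 of them and gave 0 an unadjusted p below 0.05. The 2 genes called with all libraries were not among these 7, so this fit did not test them again. DESeq2 on all libraries called 6 genes, 3 in each direction. A fit with the horse as a block, given below, called 8 genes, 7 with the heart higher and 1 with the liver higher. The balance of directions thus depended on the fit, and no direction is given for the group. In the model of all 12 libraries 5 of the 53 genes had an unadjusted p below 0.05. The fitted fold change favoured the heart for 30 genes and the liver for 23, with a median log2 fold change of 0.68.

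The 2 genes called were tested only because of their lung reads, with a spread estimated together with the lung libraries. Their adjusted p values are given as a description and not as evidence of a difference between heart and liver. ENSECAG00000035101 was called with 9, 2, 0 and 6 reads in heart replicates 1 to 4 and 1, 0, 0 and 0 in liver replicates 1 to 4. The log2 fold change was 3.63 ± 1.28 (SE, adjusted p = 0.0246 in edgeR's quasi-likelihood test). In the lung it reached 1444, 641, 467 and 448 normalized counts, so that horse 1 was highest in lung, heart and liver alike. ENSECAG00000024110 had 18, 3, 3 and 9 reads in the heart and 3, 1, 1 and 0 in the liver, a log2 fold change of 2.52 ± 0.90 (SE, adjusted p = 0.0273 in the same test). Each of its heart libraries exceeded, in normalized counts, each of its liver libraries, with the lowest heart value at 4.48 and the highest liver value at 4.08. Both of these values were 3 reads, in heart replicate 2 and liver replicate 1, divided by different size factors. The share of all genes with such a separation was not computed, so nothing is read from it.

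Both calls rested on few libraries. Heart replicate 1 held 9 of the 17 heart reads of ENSECAG00000035101 and 18 of the 33 of ENSECAG00000024110, and without it the adjusted p rose to 0.0799 and 0.0963. Both calls were also lost without liver replicate 2 (adjusted p = 0.0813 and 0.0793) and without liver replicate 3 (0.0640 and 0.0611), and that of ENSECAG00000024110 without liver replicate 4 (0.0542). Neither was lost without heart replicate 2 (0.0270 and 0.0216). The fold change of ENSECAG00000035101 rested on its lone liver read and was 5.95 on the log2 scale without liver replicate 1. With the horse as a block, as the libraries came from the same 4 animals, 8 of the 53 genes were called, of which 7 were higher in heart libraries and 1 in liver libraries. The additional genes higher in the heart were ENSECAG00000016643, ENSECAG00000023336, ENSECAG00000022305, ENSECAG00000000778 and ENSECAG00000014407, with log2 fold changes of 1.16, 3.18, 2.87, 2.60 and 2.30. The gene higher in the liver was ENSECAG00000012477, at -2.70, with 1, 0, 1 and 0 reads in the heart and 3, 5, 0 and 4 in the liver.

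The rule used only the lung median, and how the 4 lung libraries differed from each other was left free. The median CV of the 53 genes over the lung libraries was 41.0% (quartiles 29.1% and 62.8%). All 6466 genes with a lung median of at least 200 had a median CV of 15.0% (quartiles 9.59% and 23.3%), and 48 of the 53 genes lay above it. A total of 31 of the 53 exceeded 36.6%, the value that 10% of all such genes exceed. Without lung replicate 2 the medians were 31.5% and 13.8%. As each horse gave 1 lung library, differences between animals, between pieces of lung and between libraries cannot be told apart.

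The spread was wide among genes of few and of many reads. The 12 genes with a lung median under 300 had a median CV of 56.9%, and the 7 genes of at least 10000 had one of 38.7%. A difference of at least 2-fold between the highest and the lowest lung library was found for 40 of the 53 genes, compared with 14.6% of all genes with a lung median of at least 200. For a difference of at least 5-fold the numbers were 11 of 53 and 1.90%.

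The same rule with the tissues exchanged gave 117 genes for the heart and 259 for the liver. Those of the heart took 8.60% ± 1.10 of heart counts and those of the liver 47.0% ± 3.29 of liver counts (SD, n = 4 each), compared with 4.27% for the 53 genes in the lung. In their own tissue the heart genes had a median CV of 28.8%, beside 20.1% for all genes with a heart median of at least 200, and the liver genes 27.5%, beside 17.7%. These values are set side by side without a test, since each set was chosen on the same libraries.

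**Figure D3:**
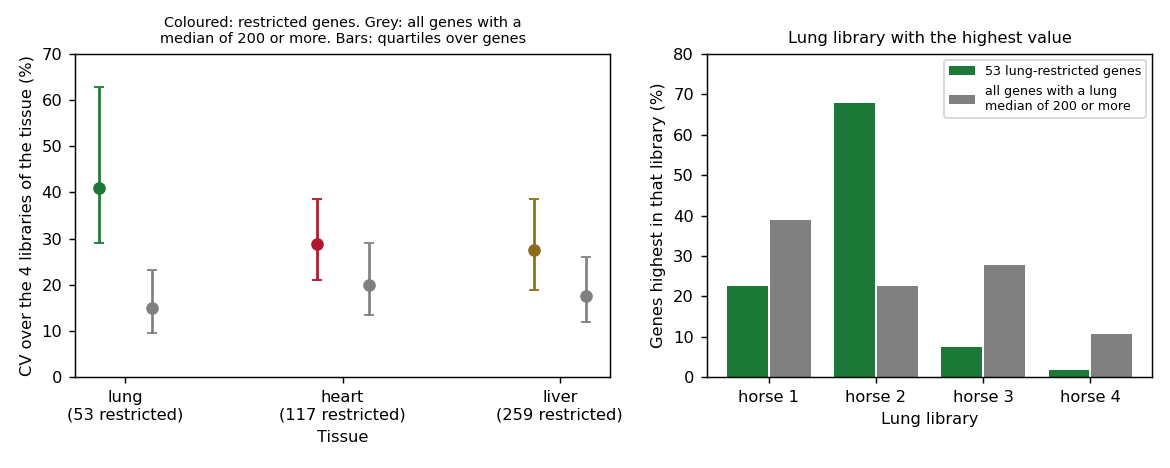
Left, coefficient of variation over the 4 libraries of a tissue for the restricted genes of that tissue and for all genes with a median of at least 200 there, as medians with quartiles over genes. Right, percent of genes whose highest lung value was in the library of each horse. The lung genes have the highest median, 41.0%, and 36 of the 53 were highest in horse 2, where 22.6% of all genes were.

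The lung library of horse 2 was highest for 36 of the 53 genes, that of horse 1 for 12, of horse 3 for 4 and of horse 4 for 1. Among all 6466 genes the shares were 22.6% in horse 2, 38.9% in horse 1, 27.8% in horse 3 and 10.7% in horse 4. The lowest library was that of horse 1 for 20 genes, of horse 3 for 16, of horse 4 for 12 and of horse 2 for 5. Of all 6466 genes, 31.7% were lowest in horse 2.

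A total of 12 genes were at least 2 times as high in lung replicate 2 as in the next lung library, compared with 1.30% of all 6466 genes. In horse 1 there was 1 such gene and in horses 3 and 4 none. The 5 genes with the largest CV of the group were among these 12. ENSECAG00000014407 had 112, 2740, 867 and 252 normalized counts in lung replicates 1 to 4, a 24.4-fold range. ENSECAG00000000778 had 770, 5358, 1096 and 664. Horse 2 stood above the other 3 horses in both, and the lowest horse differed.

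ENSECAG00000023336 had 337, 5397, 2173 and 1188 normalized counts in lung replicates 1 to 4, with horse 3 second and horse 1 lowest, as in ENSECAG00000014407. ENSECAG00000016643 had 1888, 11253, 1617 and 4954, and ENSECAG00000029387 had 177, 921, 222 and 333. In these genes horse 4 was second, and horses 1 and 3 were close to each other.

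The 12 genes high in the lung of horse 2 were followed into its other tissues. Summed over the 12, normalized counts were 31.0, 56.8, 36.6 and 31.6 in heart replicates 1 to 4 and 14.9, 21.0, 15.0 and 7.27 in liver replicates 1 to 4. The read counts behind them were 37, 38, 10 and 33 in the heart and 11, 22, 12 and 2 in the liver. Horse 2 was thus highest in all 3 tissues for this sum, but outside the lung the order rested on few reads. ENSECAG00000016643 alone gave 14 of the 38 reads in heart replicate 2 and 12 of the 22 in liver replicate 2. The lead of horse 2 in the liver depended on that gene. Heart replicate 2 is also the library that stood apart by its reads of liver-restricted genes. The lung sums were 7997, 38902, 10366 and 11241, so that horse 2 exceeded the next horse 3.46-fold in the lung and by less in heart and liver. The 12 genes were chosen after their lung values had been seen.

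**Figure D4:**
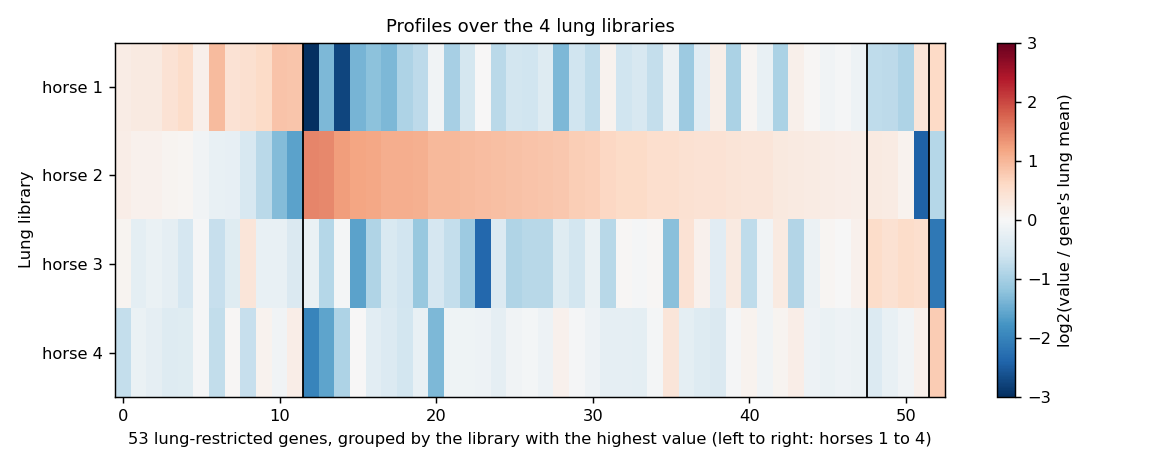
Values of the 53 lung-restricted genes in the 4 lung libraries as the log2 ratio to the mean of each gene, with genes in columns grouped by the library of the highest value. The broad second block holds the 36 genes highest in horse 2, and within it horses 1, 3 and 4 are low in different genes.

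Several genes shared the same order of the lung libraries. The order horse 2, horse 4, horse 1, horse 3 was shown by 9 genes, the order 2, 4, 3, 1 by another 9 and the order 2, 3, 4, 1 by 8. These orders were shown by 3.06%, 3.96% and 7.32% of all 6466 genes. Within the first 9, the libraries of horses 1 to 4 stood at medians of 0.697, 1.81, 0.531 and 0.963 times the mean of the gene.

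ENSECAG00000017782 and ENSECAG00000024156 belonged to these 9 genes. The former had 190, 524, 127 and 249 normalized counts in lung replicates 1 to 4 and the latter 210, 486, 154 and 247. The ratio between them was 0.906, 1.08, 0.826 and 1.01 in the 4 horses. ENSECAG00000010714, with 164, 449, 140 and 239, ran as close to ENSECAG00000011573, with 172, 467, 134 and 236, and their ratio was 0.954, 0.962, 1.05 and 1.01. These pairs were picked after their values had been seen, and with 4 libraries no correlation was computed.

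A smaller number of genes ran against horse 2. ENSECAG00000034028 was lowest there, as given above. ENSECAG00000033081 was highest in horse 4, with 297, 108, 44.4 and 330 normalized counts in lung replicates 1 to 4, the only one of the 53 genes with its highest value in that horse. At the steady end, ENSECAG00000005150 had 201, 236, 204 and 185 normalized counts, a CV of 10.2%, with 1 read over the heart and 1 over the liver libraries.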

How the data were processed

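RNA-seq was made from 12 libraries, 1 for each of 3 tissues of 4 horses, and samples were grouped by the tissue in the labels with the horse as replicate number. Whole-number counts of reads for each gene were deposited, unscaled. Going by the study's methods and the submitters' processing notes, reads passed FastQC, TopHat2 placed them on EquCab3.0, and HTSeq assigned them to Ensembl genes. No source used here states the strand setting, and the kit does not mark strand, so reads of overlapping genes cannot be told apart. HTSeq summary rows, 26.8% to 37.9% of the reads listed per library, were left out.

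Size factors were medians of ratios over the 8968 genes with at least 10 counts in all 12 libraries. Members and lists were chosen with earlier results of these data known. The genes named are the 10 with the highest lung median, those with no read in heart and liver (none), the 5 with the largest CV over lung libraries, those called in HvsLR and the 2 on each side of each threshold. Others are marked as chosen after their values were seen, or illustrate a count and were likewise chosen then. Lists of cell type markers needed symbols and were not used.

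Counts were tested in R 4.3.3 with edgeR 4.0.16: the default low-count filter by tissue left 15436 genes, TMM (trimmed mean of M-values) factors scaled the libraries, and 1 quasi-likelihood model of 3 tissues with robust estimates was fitted. The code was checked on simulated counts, with pass criteria that were revised after the first run missed the preset recovery. A call needed at least a 2-fold difference and a Benjamini-Hochberg p, over all genes tested, under 0.05. The SE is the fold change over the square root of its F. The alternatives were DESeq2 1.42.0, other scalings, filters and thresholds, a horse block and leaving out libraries or horses. Numbers were taken to pair libraries by animal. Deviations from tissue means correlated across genes at a mean r of 0.157 (0.0867 to 0.372) in the 12 pairs of libraries with the same number. The mean r was -0.052 (-0.249 to 0.128) in the 36 others, so the ranges overlap.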

Additional observations from a re-analysis of the deposited data

Results flagged for a closer look

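A total of 61 groups of 4 libraries were examined for a library far from the others, the lung values of the 53 genes and 8 summary measures, and 5 were found. The cutoff marks about 1 in 20 groups of independent, normally distributed values. The groups here share libraries and the shape of their values was not checked, so the rate by chance may differ. ENSECAG00000000778 reached 5358 normalized counts in lung replicate 2, with the next library at 1096. ENSECAG00000022305 reached 3460 in the same library, with the next at 1105, and ENSECAG00000011734 reached 618, with the next at 449. ENSECAG00000012477 was low in lung replicate 3, at 1024 normalized counts, with the next library at 2080. The share of liver-restricted genes in heart replicate 2, 1.21% of gene counts, lay far above the next heart library, at 0.1000%.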

How the results depend on the processing

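The number of lung-restricted genes was 136 with library totals alone, which include all 53. Totals weigh a heart or liver read less against a lung read, but they change the lung values too, and the part of each was not tested. The number was 35 with a lung minimum of 400. It was 14 when the lowest lung library was set against the highest heart and liver library, a stricter demand by construction. It was 45 with TMM-scaled totals, and 44 to 57 without a horse. HvsLR called 2 genes, 8 with the replicate block (horse), 6 with DESeq2 (3 in each direction) and 0 with heart and liver libraries alone, where 7 of the 53 passed the low-count filter and none had an unadjusted p below 0.05; the cause of the differences under the block and DESeq2 was not tested. Without single libraries or horses the count was 0 to 3. Both called genes failed the low-count filter with heart and liver libraries alone and were not tested there. Their log2 fold changes stayed positive in every fit in which they were tested. Levels outside the lung were 0.0591% in the heart and 0.0508% in the liver of the lung level with library totals alone, instead of 0.189% and 0.136%, and 0.138% to 0.212% and 0.121% to 0.156% without a horse. The share of lung counts was 3.77% to 4.57% without a horse and moved by less than its SD. The number highest in horse 2 was 37 with TMM-scaled totals and 33 with totals alone, a change of less than 1.5 times. The median CV was 31.5% to 48.3% without a library. It moved by less than the SD of the CVs between the 53 genes, a wide limit that does not measure how steady the median is. Totals for levels outside the lung, alternatives for the number highest in horse 2 and CVs without a library were chosen after seeing the data. Few reads outside the lung limit what HvsLR can show.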
